A study of Rattus norvegicus with 4 samples.

Results

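The comparison described here set the 2 libraries numbered replicate 1 (1 wild-type and 1 Kcnh2-/-) against the 2 numbered replicate 2, with genotype held as a term. All 4 libraries of the series enter it, and they were chosen by the replicate number in their titles alone. Each library was total RNA, depleted of ribosomal RNA, from rat embryoid bodies at differentiation day 4. Embryoid bodies are the aggregates that pluripotent cells form when they begin to differentiate. They were grown from rat embryonic stem cells of a strain labelled DASD, either wild type (WT) or lacking both copies of Kcnh2, which encodes a potassium channel of the cardiac action potential. Both genotypes had the same culture: hanging drops of 20 µl for 2 days in a medium named CM with CHIR9902 (0.75 µM), PD0325901 (0.1 µM) and Y27632 (10 µM), then laminin-coated plates for 24 hours with CHIR9902 and PD0325901, then a medium named DM for 1 day. The labels name no pairing, batch, passage or clone, and do not say whether the 2 libraries of a genotype came from separate cultures or from separate lines. The p-values below therefore measure only the spread between these libraries, which may be technical. Kcnh2 itself read 2.61 RPKM in WT and 0.108 in Kcnh2-/- of replicate 1, and 1.45 and 0.504 in replicate 2. RPKM is reads per kilobase of transcript, scaled to the reads of the library, so levels of different genes can be set side by side.

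Rat embryonic stem cells are held in a naive state, the ground state of pluripotency, by inhibitors of GSK3 and MEK. Its regulators include Nanog, Esrrb, Klf2, Tfcp2l1 and Prdm14. When these inhibitors are removed and cells aggregate, the naive network is shut down while Pou5f1 and Sox2 persist for longer, and cells then enter mesoderm or endoderm under Nodal, BMP and Wnt signals. Mesoderm gives rise to cardiac and smooth muscle, whose contractile genes include Tnnc1, Actc1, Acta2 and Tagln. Many of these genes are driven by serum response factor (SRF), which binds a short element named the CArG box. The question was how far each pair of libraries had moved along this path, and whether both genotypes differed between the numbers in the same way.

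Of 20 naive pluripotency genes tested, 13 stood higher in both replicate 2 libraries than in either replicate 1 library, a layout found for 29.5% of all genes tested. The opposite layout, found for 19.8% of all genes tested, was that of 15 of 19 smooth muscle genes and SRF targets, 8 of 12 cardiac genes, 9 of 16 genes of the epithelial to mesenchymal switch, 9 of 18 visceral and parietal endoderm genes and 5 of 14 definitive endoderm genes. Nanog read 2.5 RPKM in WT and 8.69 in Kcnh2-/- of replicate 1, against 72.6 and 74.1 in replicate 2. Tagln, an actin-binding protein of smooth muscle, read 1329 and 255 RPKM in replicate 1, against 54.9 and 16.7 in replicate 2. For both genes the distance between the numbers was greater than that between the genotypes. Among the 12355 genes that reached 1 RPKM in 2 or more libraries, 109 (0.882%) were higher and 54 (0.437%) lower in replicate 2, by limma with Benjamini-Hochberg adjustment at 0.05. The test has 1 residual degree of freedom per gene, and 2440 genes had an unadjusted p under 0.05. Differences are given on the log2(RPKM + 1) scale, replicate 2 less replicate 1, which understates changes of low genes. Of the tested genes, 255 reached 1 RPKM in the replicate 1 pair alone and 321 in the replicate 2 pair alone, so that they had to differ, and these gave 15 and 30 of the 163 calls.

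Only 80 of the 163 genes past the threshold were protein-coding by the RefSeq table. Fitted on protein-coding genes alone, 395 of 10850 (3.64%) were higher and 261 (2.41%) lower, 656 in all (6.05%), and these held all 80. Both fits are given below, since genes outside the protein-coding set took most of every library's summed RPKM, and that share moved with the number. Protein-coding genes made up 1.28% and 0.538% of the RPKM sum in WT and Kcnh2-/- of replicate 1, and 6.09% and 9.69% in replicate 2. Its part in the differences was not tested. Both replicate 2 libraries stood above both replicate 1 libraries for 3080 protein-coding genes (28.4%), and below both for 2207 (20.3%). Over all genes tested these counts were 3650 (29.5%) and 2449 (19.8%). An exact permutation test of 2 libraries against 2 cannot go below p = 0.333, so the moderated test across genes carries the calls.

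1 library stood apart. WT replicate 1 had Pearson correlations with the others of 0.873 to 0.938 over log2 values of protein-coding genes. The other 3 libraries correlated at 0.939 to 0.957 with each other. Kcnh2-/- replicate 1 correlated at 0.938 with WT replicate 1, 0.939 with WT replicate 2 and 0.950 with Kcnh2-/- replicate 2. By this measure it was no closer to the library of its own number than to those of the other. Of 847 protein-coding genes at 1 RPKM or more in a single library, 456 were found there alone in WT replicate 1, 189 in WT replicate 2, 72 in Kcnh2-/- replicate 1 and 130 in Kcnh2-/- replicate 2. Without WT replicate 1, 36 genes were higher and 11 lower, in a fit with the replicate number as its 1 term. In that fit the naive list had a median of 1.28, the smooth muscle list -0.49, the cardiac list -0.62 and the definitive endoderm list -0.45, against 1.56, -0.96, -1.39 and -1.09 with all 4 libraries. The counts were 19 and 11 without WT replicate 2, 19 and 12 without Kcnh2-/- replicate 2, and 87 and 65 without Kcnh2-/- replicate 1. All fits with 1 library left out also lack the genotype term, so the 2 changes cannot be told apart in the calls. With all 4 libraries and no genotype term, 42 of the 163 genes kept their call. Of the 39 called genes among those named by rule, 3 kept it without WT replicate 1, 1 without WT replicate 2, 1 without Kcnh2-/- replicate 2 and 20 without Kcnh2-/- replicate 1.

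The upstream sequences of 3 genes that differed between the numbers are shown because each holds an element of its regulatory class. The letters come from RefSeq (GRCr8), cover the 250 bases before the annotated start, and read 5′ to 3′ on the gene's strand. Capitals mark the element. Nanog lies on the plus strand at chr4:157615437-157615686, with a joined octamer and Sox element (TTTGCAT, any base, then ACAA) starting 195 bases before the start. Acta1, skeletal muscle actin, lies on the minus strand at chr19:68784195-68784444, with a CArG box 94 bases before the start. Fhl2, a LIM protein of heart muscle, lies on the minus strand at chr9:52954541-52954790, with a CArG box 95 bases before this start. Another annotated Fhl2 start, with upstream bases chr9:52923327-52923576, has a different CArG box 58 bases before it and is not shown. RPKM per gene do not tell which start was used.
Nanog: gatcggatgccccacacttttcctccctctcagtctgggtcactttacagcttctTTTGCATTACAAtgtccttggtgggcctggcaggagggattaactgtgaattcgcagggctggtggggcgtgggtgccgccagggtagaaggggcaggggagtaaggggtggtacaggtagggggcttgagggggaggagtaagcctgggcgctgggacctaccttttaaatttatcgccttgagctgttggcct
Acta1: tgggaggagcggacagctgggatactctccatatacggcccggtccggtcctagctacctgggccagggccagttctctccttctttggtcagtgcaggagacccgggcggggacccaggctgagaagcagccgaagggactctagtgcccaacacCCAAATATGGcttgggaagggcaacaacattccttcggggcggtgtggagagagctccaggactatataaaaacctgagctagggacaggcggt
Fhl2: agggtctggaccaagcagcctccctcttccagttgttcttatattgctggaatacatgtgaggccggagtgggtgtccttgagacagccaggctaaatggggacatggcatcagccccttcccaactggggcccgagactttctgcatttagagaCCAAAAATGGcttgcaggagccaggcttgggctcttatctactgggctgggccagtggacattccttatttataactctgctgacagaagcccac
Both elements were searched on both strands. The octamer and Sox element occurred in 9 of 33469 upstream sequences of this length (0.0269%), and of the tested protein-coding genes Nanog and Nrarp held it. The CArG box occurred in 501 of 33469 (1.5%). It was in 7 of the 200 genes with an entry that were lower in replicate 2 in the protein-coding fit (3.50%), in 4 of 290 that were higher (1.38%) and in 113 of 8536 tested (1.32%). The 7 were Acta1, Cnn2, Fhl2, Hmgb3, Myl3, Phlda2 and Rnf128. A match describes these letters only, and is not evidence of binding.

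Most naive genes were higher in replicate 2 in both genotypes, with similar medians. Of 26 listed genes 23 were found and 20 tested, of which 3 rose and none fell in the fit over all genes. In the protein-coding fit, which held 19 of them, 12 rose. The median difference over the tested genes was 1.48 in WT and 1.55 in Kcnh2-/-, beside 0.07 and 0.09 over all genes tested. Of the 20, 16 were higher in replicate 2 in both genotypes and none lower in both. 1 of them, Prdm14, passed the expression filter through the replicate 2 pair alone and so had to differ.

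Nanog, the homeodomain factor of the naive network, was 29.1 times higher in WT replicate 2 than in WT replicate 1, and 8.53 times higher in Kcnh2-/-. The 2 pairs did not overlap, and the lower value within replicate 2 was above the higher value within replicate 1. Its difference was 3.68 ± 0.41 (SE, 4 libraries; adjusted p = 0.0298, limma). Nanog and Dppa3, described below, share 1 deposited locus, so reads may have been divided between them, and the 2 are not independent markers. Esrrb, an orphan nuclear receptor that sustains self-renewal, read 1.58 RPKM in WT and 4.47 in Kcnh2-/- of replicate 1. It read 20.5 and 27.9 in replicate 2, a rise of 2.73 ± 0.32 (adjusted p = 0.0343, limma). Tcl1a, a coactivator of the AKT kinase, rose from 0.567 and 2.76 RPKM to 8.91 and 26.6 (adjusted p = 0.0286, limma).

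**Figure D1:**
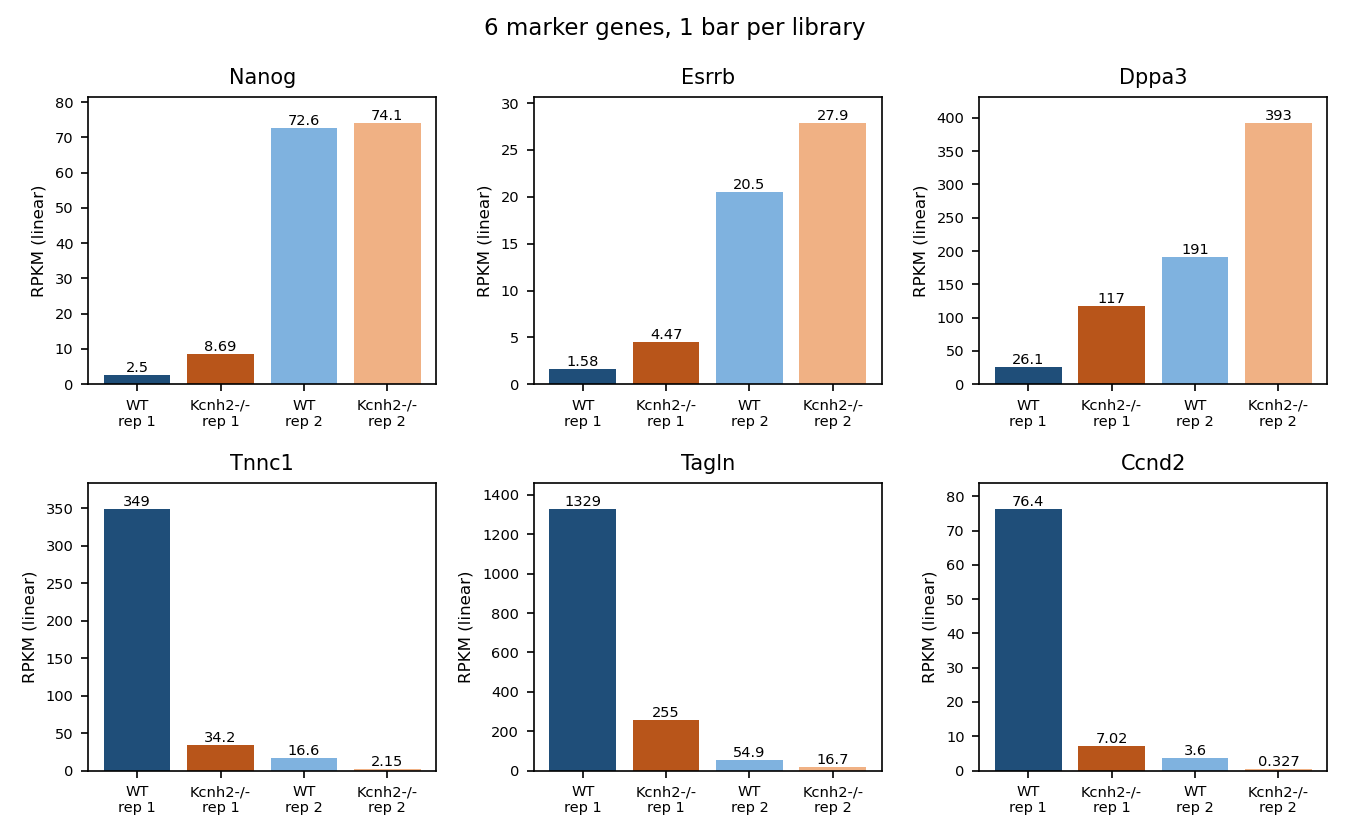
RPKM of 6 marker genes in each of the 4 libraries, 1 bar per library with its value above it, linear axes starting at 0. Nanog, Esrrb and Dppa3 were highest in the replicate 2 libraries; Tnnc1, Tagln and Ccnd2 were highest in WT replicate 1 and lowest in Kcnh2-/- replicate 2.

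Dppa3, also named Stella, is a maternal factor kept in naive cells and germ cells. It read 26.1 RPKM in WT and 117 in Kcnh2-/- of replicate 1, then 191 and 393 in replicate 2. The pairs did not overlap, but the genotypes also differed within each number, and its difference of 2.28 ± 0.33 had an adjusted p of 0.0546 over all genes and 0.00452 over protein-coding genes (limma). The others that passed only in the protein-coding fit were Klf2, Klf5, Tfcp2l1, Tbx3, Prdm14, Jam2, Zfp57 and Tet2, with differences from 1.43 to 2.60. The loci of Tfcp2l1, Jam2 and Zfp57 are also shared with another gene. Tfcp2l1, a factor downstream of LIF signals, read 0.800 and 2.12 RPKM in replicate 1 against 21.2 and 8.25 in replicate 2. Klf2, a Krüppel-like factor of the ground state, read 1.83 and 9.27 RPKM against 13.9 and 31.7.

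Not every gene of the naive list passed. Fbxo15 read 3.19 and 3.20 RPKM in replicate 1 and 3.73 and 2.99 in replicate 2. Dppa4 read 60.3 and 152 RPKM against 72.4 and 113, so its libraries were ordered by genotype within each number. Stat3, Socs3, Gbx2, Spp1 and Klf4 also did not pass, with differences of 0.03 to 0.87. Tdgf1, the Nodal coreceptor, read 41.3 and 240 RPKM in replicate 1 and 226 and 409 in replicate 2 (1.60 ± 0.43; adjusted p = 0.141, limma). Its symbol had no match in the RefSeq table, so Tdgf1 did not enter the protein-coding fit. Nr5a2, Dppa5 and Nr0b1 did not reach 1 RPKM in 2 libraries.

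Of 10 general pluripotency factors none passed over all genes. Their median difference was 1.27 in WT and -0.13 in Kcnh2-/-, and the gap between the genotypes was not tested. Pou5f1 read 273 RPKM in WT replicate 1 against 1043, 1203 and 1679 in Kcnh2-/- replicate 1, WT replicate 2 and Kcnh2-/- replicate 2. It is the 1 core gene past the protein-coding fit (1.41 ± 0.41; adjusted p = 0.0405, limma). Sox2 read 33.9 and 18.1 RPKM in replicate 1 against 47.8 and 43.8, the wider step being in Kcnh2-/-. Lin28a, an RNA-binding protein that holds back let-7, read 196 and 168 against 220 and 101. For 7 of the 10 core genes WT replicate 1 was the lowest library, and for 7 of the 10 WT replicate 2 was the highest. Over all 12355 genes tested, WT replicate 1 was the lowest for 4285 and WT replicate 2 the highest for 3316.

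Genes of the formative and primed epiblast, the state after naive pluripotency, gave a median of 1.12 in WT and -0.23 in Kcnh2-/- over 10 tested. Otx2 was listed at 0 in all 4 libraries, and Fgf5 was listed at 0 in 3 and at 0.423 RPKM in WT replicate 1. Dnmt3b, a de novo DNA methyltransferase, read 430 RPKM in WT replicate 1, 1174 in Kcnh2-/- replicate 1, 1016 in WT replicate 2 and 618 in Kcnh2-/- replicate 2, so it was higher in replicate 2 in WT and lower in Kcnh2-/-. Dnmt3l, its catalytically inactive partner, read 41.2 and 173 RPKM in replicate 1 against 342 and 382 (2.08 ± 0.47; adjusted p = 0.116 over all genes, 0.0206 over protein-coding genes, limma). Of 11 DNA methylation genes tested, none passed over all genes and 3 were higher in the protein-coding fit, Dnmt3l, Tet2 and Zfp57. Cdh2, N-cadherin, was lower in replicate 2 in that fit, at 12.9 and 2.43 RPKM against 1.22 and 0.562.

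**Figure D2:**
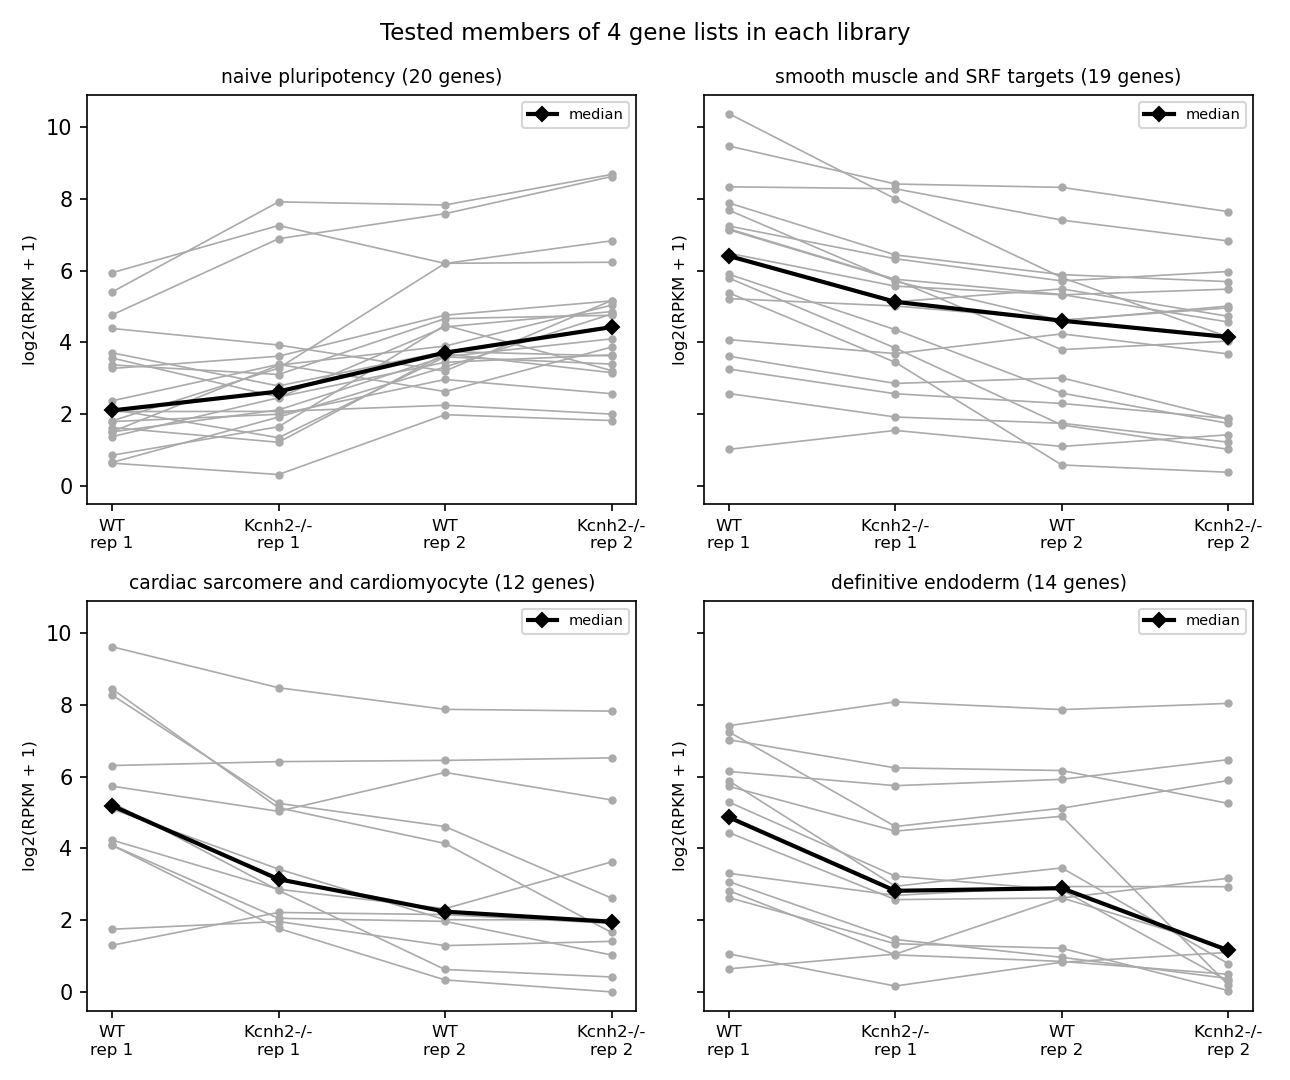
Level of the tested members of 4 gene lists in each library, log2(RPKM + 1), 1 grey line per gene and the median in black. Lines join the libraries of 1 gene and carry no order in time. The median of the naive list was lowest in WT replicate 1 (2.10) and highest in Kcnh2-/- replicate 2 (4.42), and those of the smooth and cardiac muscle lists ran the other way.

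Smooth muscle genes and SRF targets were ordered WT replicate 1, Kcnh2-/- replicate 1, WT replicate 2 and Kcnh2-/- replicate 2 by their median log2 levels, at 6.41, 5.13, 4.60 and 4.14. Of 23 genes, 19 were tested, 4 fell over all genes, 9 were lower in the protein-coding fit and none was higher in either. Of the 19, 17 were highest in WT replicate 1 and 13 were lowest in Kcnh2-/- replicate 2. Over all 12355 genes tested, 3509 were highest in WT replicate 1 and 2657 lowest in Kcnh2-/- replicate 2. The 17 that were lower in replicate 2 in both genotypes stand beside a median difference of -1.16 in WT and -0.75 in Kcnh2-/-. 1 of the 19, Acta2, passed the filter through the replicate 1 pair alone and so had to differ.

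Tagln fell by 4.21 ± 0.27 on the log2 scale (adjusted p = 0.00664, limma), 24.2 times in WT and 15.3 times in Kcnh2-/-. Its 4 values did not overlap between the numbers. The locus of Tagln also overlaps another gene. Acta2, smooth muscle actin, read 40.6 and 9.85 RPKM in replicate 1 against 0.491 and 0.296 (adjusted p = 0.0404, limma). Ankrd1, a stretch-responsive nuclear cofactor of muscle, read 54.3 and 13.3 RPKM against 2.23 and 1.02 (adjusted p = 0.0343, limma). Thbs1, thrombospondin, read 58.6 and 19.4 RPKM against 4.98 and 2.33 (adjusted p = 0.0273, limma).

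In these genes each replicate 1 library exceeded each replicate 2 library, and within each number WT exceeded Kcnh2-/-. The abundant cytoskeletal members shifted less. Tpm4, a tropomyosin of most cells, read 710 and 340 RPKM against 318 and 199 (-0.96 ± 0.24), and Vcl, vinculin, 88.5 and 46.3 against 39.0 and 43.7. Srf itself read 36.2 and 31.3 RPKM in replicate 1 and 23.6 and 30.1 in replicate 2, a difference of -0.33 ± 0.27 (adjusted p = 0.547, limma). Zyx, zyxin, read 15.8, 11.8, 17.8 and 11.8 RPKM in the same order of libraries. Myocd, the cardiac and smooth muscle partner of SRF, was at 0.0986 RPKM in WT replicate 1 and listed at 0 in the other 3 libraries.

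Cardiac genes included some that were well expressed in replicate 1 and some near 0 in all 4 libraries. Of 31 listed genes 12 were tested. Of these, 2 fell over all genes and 7 were lower in the protein-coding fit, with medians of -2.02 in WT and -0.84 in Kcnh2-/-. Tnnc1, the calcium-binding troponin of slow and cardiac muscle, read 349 RPKM in WT and 34.2 in Kcnh2-/- of replicate 1, then 16.6 and 2.15 in replicate 2 (-3.90 ± 0.30; adjusted p = 0.0124, limma). Actc1, cardiac actin, read 310 and 37.3 against 23.5 and 5.14 (adjusted p = 0.0253, limma). For both genes WT replicate 1 was far above the other 3 libraries, Kcnh2-/- replicate 2 was the lowest, and the numbers did not overlap.

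Tnnt2, Myl3, Myl4, Tpm1 and Cryab passed in the protein-coding fit only, with differences between -3.54 and -1.20. Myl3, a myosin light chain of slow and ventricular muscle, read 37.9 and 6.12 RPKM in replicate 1 against 0.543 and 0.335. Myl3 and Cryab passed the filter through the replicate 1 pair alone and so had to differ. The set near 0 held Myh6, Myl2, Actn2, Ryr2, Tnni3 and Smyd1, and the cardiac transcription factors Nkx2-5 and Tbx5. Each was under 1 RPKM in all 4 libraries. Atp2a2, the calcium pump of the reticulum, read 78.6 and 84.8 RPKM against 86.9 and 91.2, with no call. Gja1, connexin 43, read 52.4 and 31.8 against 68.7 and 39.9.

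6 cardiac genes were at 1 RPKM or more in WT replicate 1 alone and so were not tested. Nppa, an atrial hormone, read 3.58 RPKM there and 0.0687 to 0.387 in the other libraries. Mef2c, a muscle and heart field factor, read 1.58 RPKM there and at most 0.0611 elsewhere. The same held for 8 of 26 primitive streak and early mesoderm genes and for 7 of 15 endothelial and blood genes found in the files. Of all 18644 protein-coding genes in the files, 456 were at 1 RPKM or more in WT replicate 1 alone. Isl1, a factor of cardiac progenitors, read 7.51 RPKM in WT replicate 1 and 0.0188 to 0.454 elsewhere. Kdr, a VEGF receptor of mesoderm and endothelium, read 3.93 RPKM against 0.00713 to 0.153. Tek, an angiopoietin receptor, read 6.19 RPKM against 0.162 to 0.314, and Emcn, an endothelial sialomucin, read 5.28 RPKM and was listed at 0 in the other 3.

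Mesoderm genes that passed the filter were few and mixed. Of 9 tested, none passed over all genes. Pdgfra was lower in the protein-coding fit, but it passed the filter through the replicate 1 pair alone and so had to differ. T, brachyury, the factor of the primitive streak, read 13.9 and 4.96 RPKM in replicate 1 against 3.30 and 0.290 (-2.0 ± 0.32; adjusted p = 0.0675, limma). Eomes, a factor of streak and endoderm, read 8.70, 11.5, 9.05 and 9.79 RPKM in the same order, with no call. Mixl1, Tbx6, Evx1, Msgn1, Mesp2 and Foxf1 stayed under 1 RPKM in every library.

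Of 17 definitive endoderm genes 14 were tested, 2 fell over all genes, and in the protein-coding fit 5 were lower and 1 higher. 1 of those 5, Prdm1, had to differ, since it passed the filter through the replicate 1 pair alone. The medians were -1.14 in WT and -0.77 in Kcnh2-/-. Foxa2, the pioneer factor of endoderm and axial mesoderm, read 38.3 and 8.37 RPKM in replicate 1 against 6.18 and 0.231 (-2.69 ± 0.31; adjusted p = 0.0335, limma). Cxcr4, a chemokine receptor of endoderm and mesoderm, read 58.1 and 6.71 RPKM against 10.0 and 0.726 (-2.29 ± 0.29; adjusted p = 0.0426, limma). Foxa2 separated the numbers. Cxcr4 did not, since WT replicate 2 lay above Kcnh2-/- replicate 1, and its call rests on similar steps in WT (-2.43) and Kcnh2-/- (-2.16). Sox17 had the same layout, at 20.8 and 4.96 RPKM against 5.15 and 1.32. Fgf17, a ligand and the 1 gene higher, went from 0.562 and 1.08 to 5.14 and 8.01 RPKM, and Epcam read 171 to 272 RPKM in all 4 libraries. The list's median depended on which genes entered: it was -0.06 over members with a locus of 5 kb or more, an alternative chosen after seeing the data.

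Visceral and parietal endoderm are the extraembryonic layers, which these lists cannot separate fully from definitive endoderm. Of 27 genes 18 were tested, with 2 calls over all genes, Plat and Col4a1, and 7 in the protein-coding fit, all lower in replicate 2. Dab2 and Pth1r, among the 7, passed the filter through the replicate 1 pair alone. Plat, tissue plasminogen activator, read 73.2 and 26.5 RPKM against 6.54 and 0.885 (-3.58 ± 0.30; adjusted p = 0.0151, limma). Col4a1, a basement membrane collagen, read 53.9 and 18.6 RPKM against 9.89 and 2.98 (-2.32 ± 0.27; adjusted p = 0.0335, limma). Of the secreted proteins of visceral endoderm, Afp and Apoa4 were near 0 throughout, at most 0.142 and 0.0351 RPKM. Ttr, transthyretin, read 30.9 and 4.24 RPKM against 1.31 and 0. Apoe, a lipid carrier, had no call, at 582, 346, 804 and 1816 RPKM. In bulk RNA, fewer cells of a type and less RNA per cell cannot be told apart.

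Krt8, a keratin of simple epithelium, read 1567 and 531 RPKM in replicate 1 against 175 and 53.1 (-3.23 ± 0.23; adjusted p = 0.00965, limma). Its usual partner Krt18 read 314 and 253 against 230 and 255. The 2 genes of this filament pair therefore did not shift in proportion: Krt18 moved by -0.22 ± 0.25 (adjusted p = 0.671, limma). Cdx2 and Gata3, which define trophoblast with Tfap2c, were at 1 RPKM or more in WT replicate 1 alone, at 1.68 and 2.11 RPKM. Tfap2c read 2.26 and 13.9 RPKM in replicate 1 and 20.9 and 20.4 in replicate 2, without a call.

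Of 16 tested genes of the epithelial to mesenchymal switch, 3 fell over all genes and 6 were lower in the protein-coding fit. Twist1 and S100a4, among the 6, passed the filter through the replicate 1 pair alone. Vim, the intermediate filament of mesenchyme, read 153 and 24.8 RPKM against 3.60 and 1.85 (-4.12 ± 0.49; adjusted p = 0.0373, limma). S100a6, a calcium-binding protein, read 649 and 384 RPKM against 42.5 and 21.5 (-4.00 ± 0.23; adjusted p = 0.00386, limma). Anxa1, a phospholipid-binding protein, read 22.8 and 28.5 RPKM against 2.56 and 3.55 (adjusted p = 0.0250, limma). The numbers did not overlap for any of the 3. Anxa1 was no higher in WT than in Kcnh2-/- within a number, while Vim and S100a6 were. Cdh1, E-cadherin of epithelial junctions, read 103, 110, 142 and 75.4 RPKM, with no call.

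Of 17 matrix and adhesion genes tested, Thbs1 and Col5a2 fell over all genes and 6 were lower in the protein-coding fit. Col5a2, Col3a1 and Tnc, all among the 6, passed the filter through the replicate 1 pair alone and so had to differ. Fn1, fibronectin, read 130 and 48.4 RPKM in replicate 1 against 126 and 70.8, and Serpinh1, a collagen chaperone, 257 and 168 against 115 and 205. Feeder fibroblasts are another cell type that such genes could come from. Of 12 fibroblast genes found in the files 3 were tested, and all 3 passed through the replicate 1 pair alone. Their summed level over the 12 was 31.6 and 16.1 RPKM in replicate 1 against 2.12 and 0.700 in replicate 2. Col1a1 was at most 1.40 RPKM, Dcn at most 1.42, Pdgfrb at most 0.605, and Fap was listed at 0 in all 4. The part of such cells in the result was not tested.

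**Figure D3:**
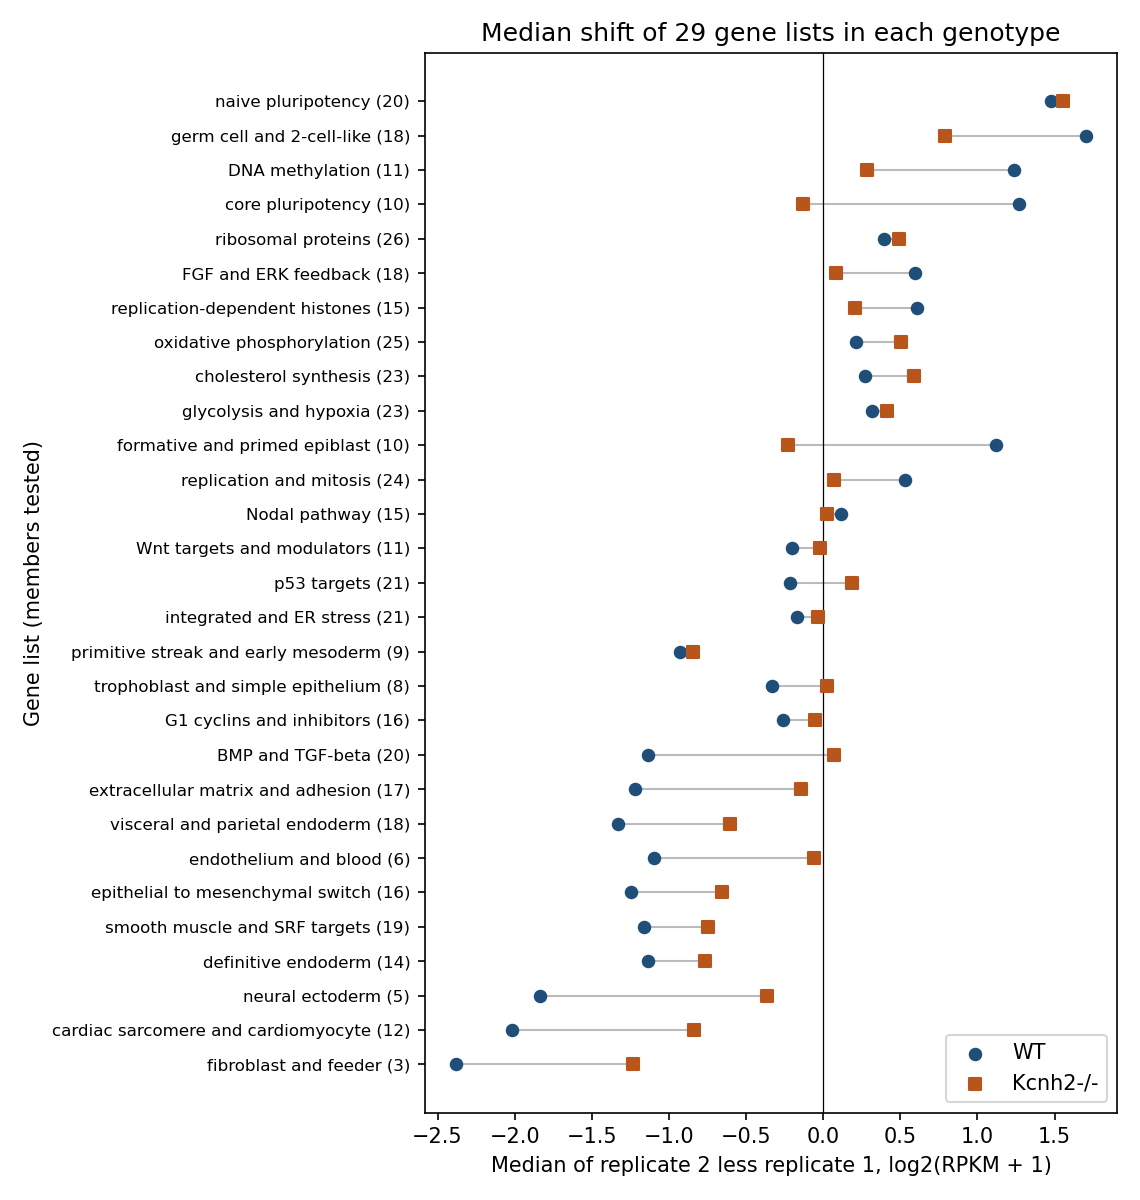
Median over the tested members of 29 gene lists of replicate 2 less replicate 1, log2(RPKM + 1), in WT (circles) and Kcnh2-/- (squares), with the number of members tested in brackets. The naive list was at 1.48 and 1.55, and the cardiac list at -2.02 and -0.84. Lists with few tested members (fibroblast, neural, endothelium) rest on 3 to 6 genes.

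Of 15 Nodal pathway genes 1 passed over all genes. Cfc1, a coreceptor, fell from 61.1 and 8.88 RPKM to 7.35 and 0.405 (-2.85 ± 0.28; adjusted p = 0.0237, limma), and its locus overlaps another gene. The ligand Nodal read 16.1 and 35.0 RPKM against 44.9 and 87.2, and the inhibitor Lefty1 27.4 and 100.4 against 190 and 240. Nodal, Lefty1 and the convertase Pcsk6 were higher in the protein-coding fit, and for all 3 both replicate 2 libraries stood above both replicate 1 libraries. The receptors Acvr1b, Acvr2a and Acvr2b differed by -0.15 to 0.58, without a call.

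Several targets of BMP signalling were highest in WT replicate 1. Id1, an inhibitor of differentiation factors, read 122 RPKM in WT replicate 1 against 25.2, 30.5 and 52.3 in Kcnh2-/- replicate 1, WT replicate 2 and Kcnh2-/- replicate 2. Id3 read 195 RPKM against 46.8, 57.8 and 57.7, and Smad6 13 against 1.55, 2.2 and 2.15. Over 20 tested genes of the BMP and TGF-beta list the median was -1.13 in WT and 0.07 in Kcnh2-/-. The median of the fitted difference was -0.45 with all 4 libraries. It was 0.15 without WT replicate 1, in a fit that also lacks the genotype term, so the 2 changes cannot be told apart. WT replicate 1 was the highest library for 14 of the 20, beside 3509 of all 12355 genes tested. Tgfb3, a TGF-beta ligand, was the 1 gene to fall over all genes, from 11 and 5.41 RPKM to 0.269 and 0.122 (adjusted p = 0.0374, limma), but it passed the filter through the replicate 1 pair alone and so had to differ. In the protein-coding fit 3 genes were lower. The genotype by replicate term leaves no residual degree of freedom, so the difference between the 2 shifts was not tested.

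Wnt and FGF genes showed few calls. None of 11 Wnt targets and none of 18 FGF and ERK genes passed over all genes. In the protein-coding fit 1 Wnt target was lower, and 1 FGF and ERK gene was higher and 2 lower. Dkk1, a secreted Wnt inhibitor, read 14.9 and 3.43 RPKM against 2.03 and 0.206 and was lower in the protein-coding fit. Etv5, a factor induced by FGF signals, read 9.11 and 17.8 RPKM against 43.5 and 45.7 and was higher in it. Dusp6, the ERK phosphatase that reads out pathway activity, read 88.6 and 84.1 RPKM against 73.8 and 88.9 (-0.09 ± 0.24; adjusted p = 0.859, limma).

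Of 16 regulators of G1, 2 fell over all genes, and in the protein-coding fit 5 were lower and 2 higher. Ccnd2, cyclin D2, read 76.4 and 7.02 RPKM in replicate 1 against 3.60 and 0.327 (-3.33 ± 0.44; adjusted p = 0.0446, limma). The fold was 21.2 in WT and 21.5 in Kcnh2-/-, and within each number WT exceeded Kcnh2-/-. Cdkn2b, the inhibitor p15, read 33.8 and 14.6 RPKM against 1.04 and 0.607 (adjusted p = 0.0209, limma). Ccnd1 read 24.0 and 35.3 RPKM against 19.7 and 26.7, without a call, and Ccnd3 25.7 and 38.7 against 57.5 and 59.4, also without one. Of 24 replication and mitosis genes none passed over all genes. Rrm2, a subunit of ribonucleotide reductase, was higher in the protein-coding fit (adjusted p = 0.0425, limma), with values of 122 and 284 RPKM against 257 and 493. Over the 24 the median difference was 0.53 in WT and 0.07 in Kcnh2-/-. WT replicate 1 was the lowest library for 20 of the 24, beside 4285 of all 12355 genes tested.

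Beside the lists, the largest rises among the protein-coding genes named by rule were those of Clpsl2 and Wfdc15a. Clpsl2, a colipase-like gene, read 0.342 and 2.28 RPKM against 53.1 and 60.1 (4.78 ± 0.37; adjusted p = 0.0124, limma). Wfdc15a, a protease inhibitor-like gene, read 2.29 and 8.0 against 102 and 136 (4.45 ± 0.34; adjusted p = 0.0112, limma). Tdh, threonine dehydrogenase, an enzyme known from mouse embryonic stem cells, read 2.68 and 8.12 RPKM against 58.5 and 80.5 (3.59 ± 0.32; adjusted p = 0.0180, limma). These 3 were ordered as Nanog was, with Kcnh2-/- above WT within each number. Rarres2, Echdc3, Crabp1, Isg15, Cnpy1, Slco4a1 and Stbd1 also rose, by 3.05 to 3.30. Echdc3 passed the filter through the replicate 2 pair alone and so had to differ, and the locus of Rarres2 is shared with another gene.

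The largest drop among those named was that of Il17d, an interleukin 17 family cytokine, at 138 and 147 RPKM in replicate 1 against 1.52 and 0.537 in replicate 2 (-6.19 ± 0.31; adjusted p = 0.00237, limma). F3, tissue factor, read 163 and 46.9 RPKM against 10.7 and 3.54 (adjusted p = 0.00998, limma). Acta1 read 325 and 88.7 against 25 and 8.61 (adjusted p = 0.00993, limma), and Fhl2, whose upstream sequence stands beside it above, 35.1 and 11.3 against 2.59 and 0.425 (adjusted p = 0.0202, limma). Among the genes that rose, Crabp1, which binds retinoic acid, read 12.8 and 24.7 RPKM in replicate 1 against 169 and 175.

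**Figure D4:**
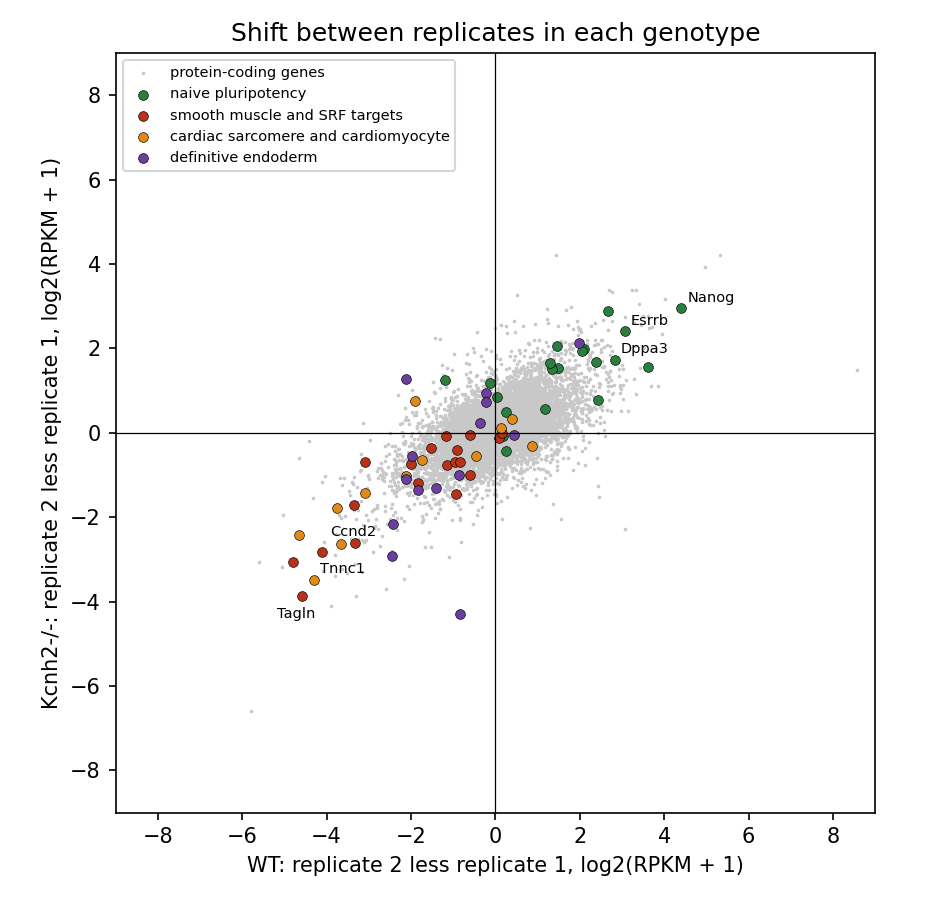
Replicate 2 less replicate 1 in Kcnh2-/- (vertical) against WT (horizontal), log2(RPKM + 1), for 10849 protein-coding genes in grey, with tested members of 4 lists in colour. 1 gene, Syne2, lies outside the axes. Naive genes lie mostly in the upper right and muscle genes in the lower left.

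Both genotypes shifted in the same direction for most genes, and WT shifted further. Of 10850 protein-coding genes 7337 (67.6%) had the same sign in WT and in Kcnh2-/-, and the shifts had a Pearson r of 0.58 across genes, which are not independent replicates. The 2 shifts share no library. The interquartile range was 0.96 in WT and 0.64 in Kcnh2-/-. A shift of more than 1 was seen for 2267 genes in WT (20.9%) and 1090 in Kcnh2-/- (10.0%). Both shifts passed 1 upward for 371 genes and downward for 266, and they passed it in opposite directions for 22. Between the genotypes, by comparison, 1243 genes (11.5%) differed by more than 1 in replicate 1 and 841 (7.75%) in replicate 2.

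The study's own contrast gave fewer calls than the numbers did. Kcnh2-/- against WT, fitted with no replicate term, had 14 of 12355 genes past the threshold (0.113%), 28 with it (0.227%), and 82 of 10850 with it over protein-coding genes (0.756%). The contrasts share all 4 libraries, so their calls are not set against each other further. The WT shift was uneven over the genome. Over protein-coding genes whose mean reached 5 RPKM, its median was 0.39 on chromosome 3, 0.41 on chromosome 13 and 0.44 on chromosome 16, where the Kcnh2-/- shift was 0.09, 0.02 and 0.08. It was 0.25 on chromosome 20, where Kcnh2-/- was at 0.19, and on the other autosomes between -0.15 and 0.10. Tnnc1, Plat and Col4a1 lie on chromosome 16, and Actc1, Foxa2 and Thbs1 on chromosome 3, and each was lower in replicate 2. Klf2 and Ankrd37 also lie on chromosome 16, and Wfdc15a and Slco4a1 on chromosome 3, and each was higher. The part of the chromosome in these differences was not tested. Outside chromosomes 3, 13, 16, X and Y, 376 protein-coding genes were higher and 230 lower, in an alternative chosen after seeing the data.

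Some of the genes whose 2 shifts were furthest apart were set by a single library. Igf2, a growth factor of mesoderm and endoderm, read 70.2 RPKM in WT replicate 1 and 2.31 to 2.98 in the other 3, and its locus overlaps another gene. Has2, the hyaluronan synthase, read 110 RPKM there, and 11.6, 3.38 and 7.32 in Kcnh2-/- replicate 1, WT replicate 2 and Kcnh2-/- replicate 2. Pxt1, a testis gene, read 654 RPKM in WT replicate 2 and 0.735 to 11.5 elsewhere. Cer1, a secreted Nodal and BMP antagonist of endoderm, read 0.144 RPKM in Kcnh2-/- replicate 2 and 21.4 to 52.2 elsewhere. Others were not set by a single library, such as Tmem59l, at 4.07 and 24.5 RPKM in replicate 1 and 26.7 and 7.87 in replicate 2. All these shifts rest on 1 library per side and have no replicate check.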

How the data were processed

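Gene expression was measured by stranded, paired-end RNA-seq of 100 bp reads (TruSeq Stranded, HiSeq) in 4 libraries, per the labels' protocols. The authors deposited 1 table of RPKM per library for 32753 genes; TopHat2 2.0.13, Cufflinks 2.2.1 and the build rn6 are named in the submitters' processing notes. Neither the annotation nor the settings are given in the sources used here. RPKM keep no absolute depth, so no counting interval is given. RPKM sums ran from 8.93e+06 to 1.09e+08 per library.

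Replicate 2 was compared with replicate 1 by limma 3.58.1 in R 4.3.3 (lmFit, eBayes with trend, two-sided) on log2(RPKM + 1), with genotype as a term, Benjamini-Hochberg adjustment over the 12355 genes that reached 1 RPKM in 2 or more libraries, and a threshold of 0.05. The fit was tested on simulated data. A gene was protein-coding by symbol in a RefSeq table (GRCr8). 29 lists named 572 genes, of which 547 were found and 423 tested; 72 of these share a locus with another gene.

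The members and lists were chosen with earlier results of these data known. Genes named beside the lists were the 6 markers, then in each direction the 12 protein-coding genes of largest difference past the threshold, with pairs separated, a higher pair averaging at least 5 RPKM and no clone or locus name; the leading members of each list by p; and 6 in each direction of largest difference between the genotypes' shifts. Some genes that met these rules are not reported here. Other genes, such as Fhl2, were chosen after their values were seen. Alternatives covered the pseudocount, filter, scaling, variance model, genotype term, threshold, gene class and each library left out; 3 were chosen after seeing the data (a locus of 5 kb or more, chromosomes left out, a locus and symbol of its own). Plots used matplotlib 3.10.9.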

Additional observations from a re-analysis of the deposited data

Results flagged for a closer look

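The shift from replicate 1 to replicate 2 had opposite signs in the genotypes for 28 of the 102 named genes and for 5 of 29 list medians. Over all genes tested, 8359 of 12355 (67.7%) had the same sign in both, so opposite signs were not particular to the named genes. The 102 include genes chosen for the widest gap between the 2 shifts. Given here are 7 of the genes named for the widest gap between the 2 shifts. Of those 5 lists, the 3 whose medians were more than 1 apart are also given. Each value below is the Kcnh2-/- shift less the WT shift on the log2(RPKM + 1) scale, from 1 library per side, and no difference was tested. Higher in replicate 2 in Kcnh2-/- and lower in WT were Mzt1, a microtubule organiser (3.68), Ooep, an oocyte protein (3.54), and Trh, the thyrotropin-releasing hormone (3.41). Syne2 was at 18.18 because its short deposited locus was listed at 0 in Kcnh2-/- replicate 1 and at 79270 to 282186 RPKM in the others, so no fold is given. Lower in Kcnh2-/- and higher in WT were Tmem59l (-3.98), the tubulin Tubb4a (-3.60) and Zfp185 (-3.05).

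Of the lists, core pluripotency differed by -1.40, formative and primed epiblast by -1.35, and BMP and TGF-beta by 1.20 between the medians of the 2 genotypes. In each, the WT shift was the larger one in size. Pou5f1 was at 273 RPKM and Id1 at 122 RPKM in WT replicate 1, and that library was the lowest for 7 of 10 core genes and the highest for 14 of 20 BMP and TGF-beta genes. Over all 12355 genes tested, WT replicate 1 was the lowest library for 4285 and the highest for 3509. The part of that library in the 3 values was not tested.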

How the results depend on the processing

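With 1 residual degree of freedom, the counts depended on the setting. Against 109 higher and 54 lower, 16 and 7 passed with no filter beyond a value above 0. With no genotype term 33 and 9 passed, and with robust moderation 370 and 191. At a threshold of 0.1 the counts were 343 and 163, and over protein-coding genes 395 and 261. Among alternatives chosen after seeing the data, 318 and 249 passed over protein-coding genes with a locus of 5 kb or more, 376 and 230 outside chromosomes 3, 13, 16, X and Y, and 197 and 101 over genes with a locus and a symbol of their own. Pseudocount 5 left 23 lower, a filter at 5 RPKM 34, and quantile normalization gave 97. Quantile normalization moved the median of all genes from 0.09 to -0.03 and the share of higher calls from 66.9% to 57.1%; that share was 78.6% with no genotype term and 56.1% for loci of 5 kb or more. Leaving out 1 library gave 19 to 87 higher and 11 to 65 lower. Fewer genes were fitted with the filter at 5 RPKM, which gave 114 calls among 8933. Fewer were also fitted over protein-coding genes alone, which gave 656 among 10850. The weight limma put on the spread shared across genes (prior degrees of freedom) was 4.11 over all genes and 7.73 over protein-coding ones. The fits with 1 library left out had fewer samples and also lacked the genotype term. The causes of these changes in the counts were not tested.

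The median difference of the naive list was 1.56 and stayed positive: 1.87 with pseudocount 0.1, 1.15 with 5, 1.47 with no filter, with median-of-ratios scaling and outside those chromosomes, 1.76 with the filter at 5 RPKM and for loci of 5 kb or more, 1.39 with quantile normalization, 1.43 for genes with their own locus and symbol, and 1.28 to 1.69 with 1 library left out. The definitive endoderm median of -1.09 was -1.42 with pseudocount 0.1, -0.54 with 5, -0.82 with no filter, -0.67 with the filter at 5 RPKM and outside those chromosomes, -0.063 for loci of 5 kb or more, and -1.87 to -0.45 with 1 library left out. Visceral and parietal endoderm was -0.13 with the filter at 5 RPKM. The cardiac median of -1.39 was -0.53 with no filter and -0.57 outside those chromosomes. Smooth muscle genes were -1.28 with the filter at 5 RPKM, -1.41 with quantile normalization and -1.40 to -0.49 with 1 library left out. Of 29 list medians, 11 changed sign in at least 1 setting. Quantile normalization turned ribosomal proteins from 0.50 to -0.28, replication-dependent histones from 0.44 to -0.14 and glycolysis from 0.33 to -0.063. The fit without WT replicate 1 also lacks the genotype term. It turned BMP and TGF-beta from -0.45 to 0.15, formative and primed epiblast from 0.26 to -0.0013 and trophoblast from -0.15 to 0.026. Nodal was -0.11 outside those chromosomes, -0.15 for genes with their own locus and -0.029 without WT replicate 2, and primitive streak 0.083 with the filter at 5 RPKM. The Wnt, stress and p53 medians, all within 0.07 of 0, also turned; with 1 library left out Wnt ran from -0.37 to 0.23, stress from -0.25 to 0.14 and p53 up to 0.24.

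Of 102 genes named, 39 were called. All 39 kept the call under both scalings, without the trend, with robust moderation and in the protein-coding fit, 35 with pseudocount 0.1, 20 with 5, 28 with the filter at 5 RPKM, none with no filter, 3 with no genotype term, and 1 to 20 with 1 library left out. Nanog ranged from 2.94 to 4.41 and Tnnc1 from -5.55 to -2.24 over the alternatives, with the call kept in 12 of 17 settings for Nanog and 10 of 16 for Tnnc1. Both lost it without WT replicate 1, without WT replicate 2 and without Kcnh2-/- replicate 2, and Tnnc1 also without Kcnh2-/- replicate 1.

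Kcnh2-/- against WT gave 4 higher and 10 lower genes. With the replicate block it gave 14 and 14, and 57 and 25 over protein-coding genes. Leaving out 1 library gave 0 to 9 higher and 3 to 10 lower. The labels give only shared numbers, and with 2 pairs the correlation of 0.38 between the genotypes' shifts (0.58 over protein-coding genes) does not establish a pairing.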

Other observations

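Respiratory, ribosomal and sterol genes had no calls, and most were highest in Kcnh2-/- replicate 2. Kcnh2-/- replicate 2 was the highest library for 3757 of all 12355 genes tested. Of 25 oxidative phosphorylation genes tested, 23 were highest in Kcnh2-/- replicate 2, as were 21 of 26 ribosomal protein genes and 16 of 23 cholesterol synthesis genes. In the protein-coding fit 2, 3 and 0 were higher. Cox5b, a subunit of cytochrome oxidase, read 484 and 578 RPKM in replicate 1 against 780 and 1330 in replicate 2. Rps15 read 822 and 983 RPKM against 1847 and 2327. The ribosomal median was 0.39 in WT and 0.49 in Kcnh2-/-, and it changed sign under quantile normalization, so its direction depends on the scaling. Among 23 glycolysis and hypoxia genes, Ndrg1 and Ankrd37, both known to be induced by low oxygen, rose over all genes, and 7 were higher in the protein-coding fit. Ndrg1 went from 2.64 and 2.22 to 38.6 and 17.9 RPKM (adjusted p = 0.0335, limma), and Ankrd37 from 3.97 and 6.66 to 21.3 and 31.9 (adjusted p = 0.0426, limma). Gapdh read 1146, 1185, 1220 and 1213 RPKM, and Vegfa 29.5, 17.4, 18.1 and 18.8, in WT and Kcnh2-/- of replicate 1 and then of replicate 2.

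Of 18 germ cell genes tested none passed over all genes, and in the protein-coding fit 7 were higher and 2 lower, of which Prdm1 passed the filter through the replicate 1 pair alone. Ddx4, the vasa helicase, read 7.75 and 105 RPKM in replicate 1 against 27.9 and 81.9 in replicate 2, and Usp26, an X-linked testis gene, 7.83 and 62.8 against 7.25 and 30.6. Stk31 and Asz1, which act in the germ line, read 1.37 and 8.68 RPKM against 10.8 and 30, and 2.67 and 5.54 against 12.3 and 22.6. Ddx4 was higher in replicate 2 in WT and lower in Kcnh2-/-, and Usp26 was lower in both. WT replicate 1 was the lowest library for 14 of the 18, beside 4285 of all 12355 genes tested. Hist2h4, a histone H4 gene of the replication-dependent set, rose from 234 and 353 RPKM to 2372 and 3678 (3.36 ± 0.25; adjusted p = 0.0107, limma). The linker histone gene Hist1h1c read 1101, 1170, 1157 and 1234 RPKM. Histone H4 genes are near-identical copies, so reads may have been divided among them. Mt2A, a metallothionein chosen after its values were seen, rose from 88.9 and 145 to 576 and 1507 RPKM (adjusted p = 0.0193, limma).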
